A study of Arabidopsis thaliana with 6 samples.

Results

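The genes described here are the MYB transcription factor genes of Arabidopsis thaliana, taken as all nuclear protein-coding genes whose symbol is MYB followed by a number, without GL1 (AT3G27920) and WER (AT5G14750). The rule found 113 genes among 27444 nuclear protein-coding genes, and it used symbols alone and no measured value. Their occupancy by SWINGER (SWN) was read from chromatin immunoprecipitation and sequencing of whole seedlings 14 days old. SWN supplies the catalytic activity of one form of Polycomb repressive complex 2. In every library the plants lacked the endogenous SWN function (swn mutant) and carried a pSWN:SWN-GFP transgene, in which the promoter of SWN drives SWN fused to green fluorescent protein, and an antibody against GFP was used. There were 2 libraries of pSWN:SWN-GFP swn seedlings, called SWN-GFP, and 2 of pSWN:SWN-GFP swn val1 val2 seedlings, called SWN-GFP val1 val2, in which the related B3-domain repressors VAL1 and VAL2 were both mutated. One input library per genotype has no file used here. The genotypes were compared to see which MYB genes carry SWN with and without functional VAL1 and VAL2.

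MYB proteins of plants bind DNA through repeats of the MYB domain, and most Arabidopsis members have a pair of such repeats (R2R3-MYB). Small subgroups of close relatives control single branches of metabolism or single cell fates, such as flavonols, anthocyanins, glucosinolates, lignin, cutin, suberin, stamen maturation and axillary buds. Many are transcribed in few cell types or only after a stimulus, and genes of that kind are common targets of Polycomb repression, which deposits methylation on lysine 27 of histone H3. VAL1 and VAL2 are known to bind the RY element and to repress genes of the seed programme after germination.

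A gene was called occupied in a list when a peak overlapped its span by 1 bp or more. A gene with peaks in all 4 lists was called kept. A gene was called lost if the pair of SWN-GFP lists held peaks there but the double mutant lists held none, gained in the reverse case, and mixed otherwise. The covered length is the number of bp of the gene span under peaks. A gene was said to be covered less, or covered more, when both double mutant libraries lay below, or above, both SWN-GFP libraries. The strongest peak of a gene is the overlapping peak with the highest fold enrichment, a ratio from the authors' peak caller of the fragment pileup over its local background, and its percentile is its rank by fold. Since ranks in lists of different lengths are not comparable, percentiles of named genes were taken in lists cut to the 8189 peaks of smallest p, the length of the shortest list, a choice made after seeing the data.

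SWN-GFP replicates 1 and 2 gave 8189 and 8666 peaks, and the double mutant replicates gave 9177 and 9618. Because read totals are unknown, the lack of a peak says only that the signal did not reach the caller's threshold, not that SWN was absent. With 2 libraries against 2, the smallest two-sided p of an exact permutation test is 0.33. No single gene could therefore pass 0.05, and the differences below are described without a call of significance. Any batch that coincides with a genotype, its input included, and the genotype itself cannot be told apart. In whole seedlings, SWN on a gene in few cells and weaker SWN in many cells cannot be told apart, and peak lists hold no expression values with which to check the tissue.

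SWN-GFP peaks lay over a larger share of MYB genes than of protein-coding genes at large. Both SWN-GFP lists had a peak in 52 of the 113 MYB genes (46.0%), against 16.9% of all nuclear protein-coding genes. Both double mutant lists had one in 59 MYB genes (52.2%), against 17.9%. In single lists 55 and 56 MYB genes were occupied in SWN-GFP replicates 1 and 2, where the shares over all genes were 18.9% and 19.7%, and 64 and 62 in the double mutant replicates, where they were 20.5% and 21.5%. A peak in any list was found at 72 MYB genes (63.7%), against 29.0% of all genes. MYB spans are shorter than most, with a median of 1763 bp against 2078 bp over all nuclear protein-coding genes. Over all genes the median span was 1811 bp with a peak in any list and 2197 bp with none. Among MYB genes the order was the reverse, 1821 bp with a peak and 1541 bp with none.

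Peaks over MYB genes also had a higher median length. Their share in the top ranks was somewhat larger than over all occupied genes, and no test was made of it. The median length of the strongest peak was 866 and 942 bp over MYB genes in SWN-GFP, against 632 and 648 bp over all occupied genes of the same lists. In the double mutant these medians were 900 and 1060 bp against 578 and 589 bp. At least 50% of the span was covered in both SWN-GFP lists at 28 of the 52 occupied MYB genes, against 40.2% of all occupied genes, and in both double mutant lists at 33 of 59, against 36.7%. In the full lists the strongest peak lay at or above percentile 90 of fold at 11 and 12 MYB genes in SWN-GFP (20.0% and 21.4% of those occupied), against 16.0% and 16.1% of all occupied genes. In the double mutant it did so at 14 and 15 (21.9% and 24.2%), against 15.8% and 15.9%. The summit of that peak lay inside the span at 50 of 55 and 50 of 56 MYB genes in SWN-GFP and at 55 of 64 and 53 of 62 in the double mutant. These summit counts have no share over all occupied genes beside them, so they are not a contrast with other genes.

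**Figure D1:**
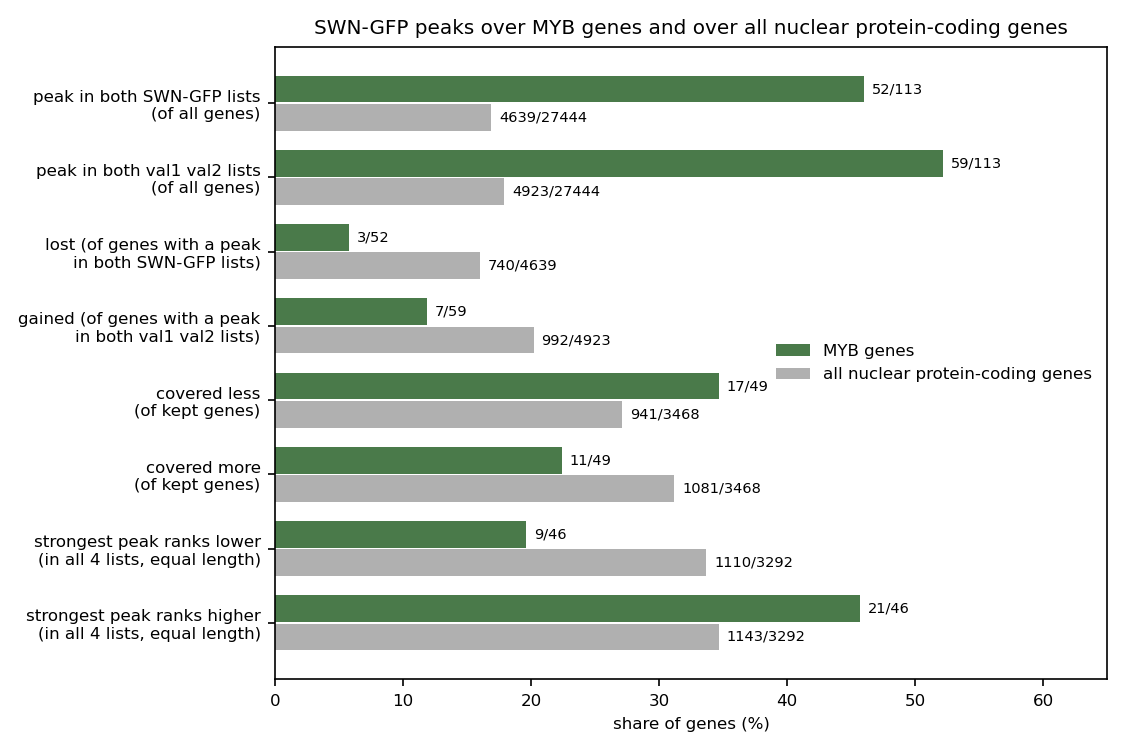
Share of genes (x axis, %) in each class for the MYB genes (green) and for all nuclear protein-coding genes (grey), with the counts printed at the bars. MYB genes were occupied in 46.0% and 52.2% of cases against 16.9% and 17.9% of all genes, and 5.77% of the occupied ones were lost against 16.0%.

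Most occupied MYB genes had peaks in both genotypes. Of the 52 MYB genes with a peak in both SWN-GFP lists, 49 were kept and 3 were lost (5.77%), where 16.0% of all such genes were lost. Of the 59 with a peak in both double mutant lists, 7 were gained (11.9%), where 20.2% of all such genes were gained. A further 13 were mixed and 41 had no peak in any list. Most of the lost and gained peaks were weak: with only peaks of a fold of at least 4, none of the 3 lost genes was lost and 1 of the 7 gained genes was gained. That 1 was MYB121, touched by only 89 and 63 bp of peaks whose summits lay outside the gene. The same filter left 20 of the 49 kept genes kept, so weak peaks were not particular to lost and gained genes. No such share over all lost and gained genes stands beside these counts. Among the 72 MYB genes with any peak, 20 were covered less in the double mutant and 19 were covered more, against 24.9% and 30.1% of all genes with any peak. Within the 49 kept genes, 17 were covered less (34.7%, against 27.1% of all kept genes) and 11 more (22.4%, against 31.2%), while the genotypes overlapped at 21. With 4 libraries no test was made of these shares. Peaks covered 64.3 ± 3.4 kb of the 113 MYB spans in the SWN-GFP libraries, against 69.1 ± 0.373 kb in the double mutant libraries (SD, n = 2 each). These were 29.6% and 31.9% of the MYB spans in SWN-GFP and 33.0% and 33.2% in the double mutant. Of all protein-coding spans, 5.89% and 6.24% were covered in SWN-GFP and 6.03% and 6.4% in the double mutant, whose lists hold more peaks.

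**Figure D2:**
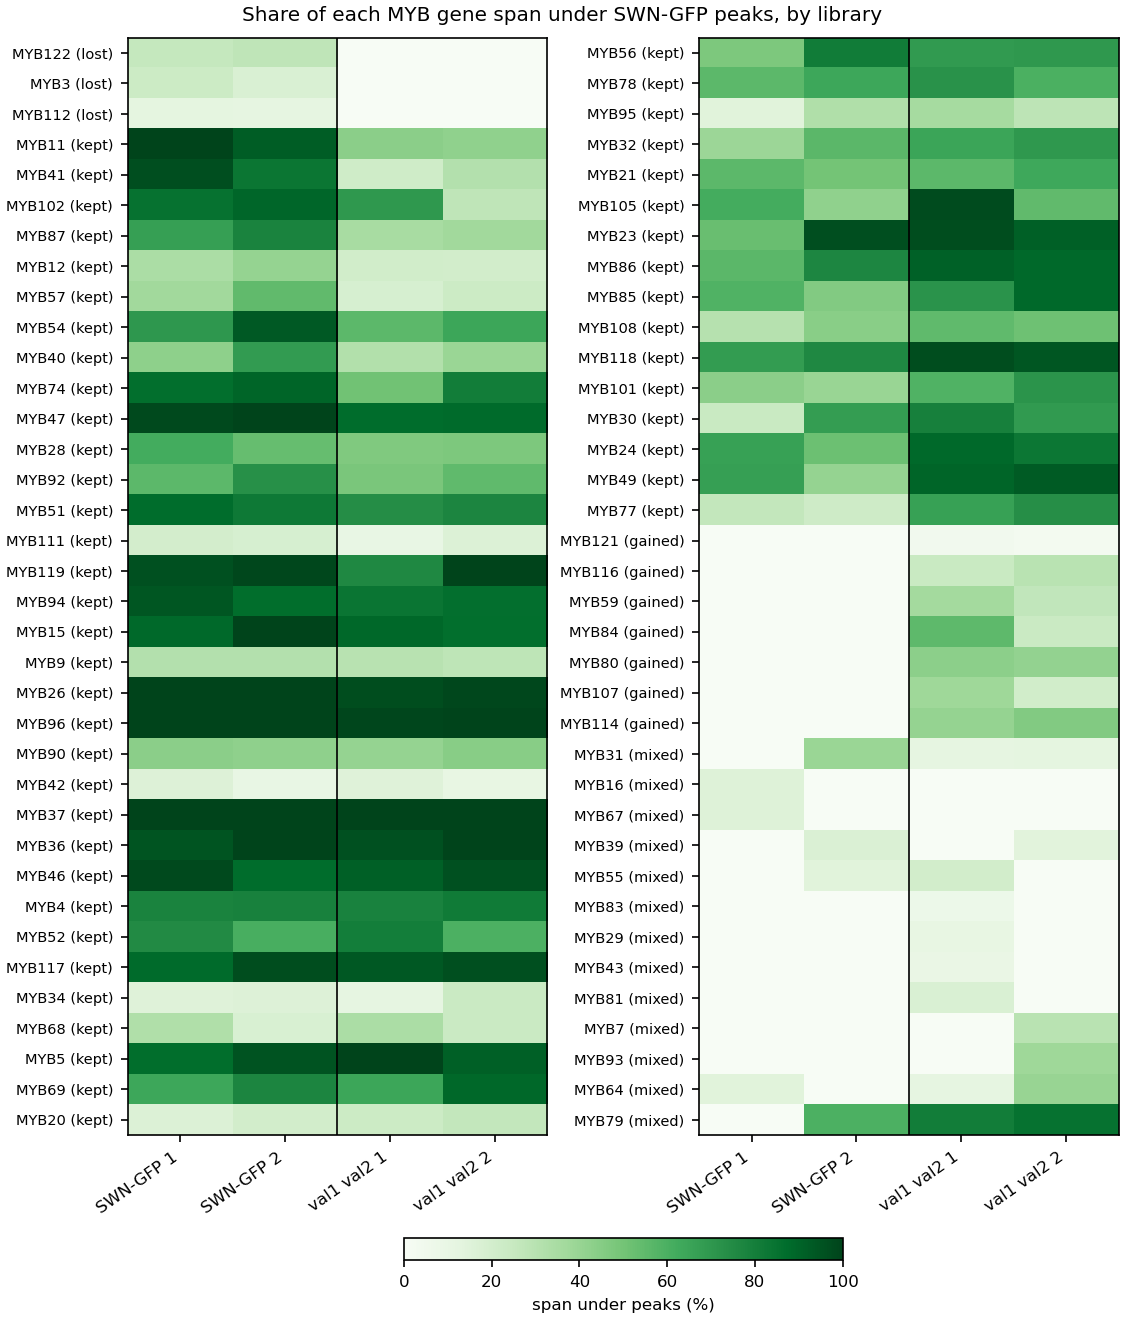
Share of each gene span under peaks (colour, 0 to 100%) for the 72 MYB genes with a peak in any list (rows, with their class) in the 4 libraries (columns). Kept genes are ordered by the difference of mean covered bp, from MYB11, where the double mutant was lowest relative to SWN-GFP in bp, to MYB77, where it was highest, and MYB37 is covered whole in every library.

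The kept genes with the highest mean fold in SWN-GFP, by rank, were MYB5, MYB47, MYB23, MYB11, MYB94, MYB26, MYB96 and MYB119. MYB5 (AT3G13540), a regulator of the seed coat and of trichome branching, was covered over 1556 and 1705 bp in SWN-GFP and 1792 and 1636 bp in the double mutant. Its peak ranked at percentiles 99.0 and 99.4 and then 99.5 and 99.2, so both genotypes held it among their strongest, and all 4 peaks also reached the neighbouring gene MAPKKK7. MYB23 (AT5G40330), which acts in trichomes beside GL1, was covered over 1020 and 1870 bp and then 1883 and 1767 bp, with percentiles of 97.9 and 98.9 and then 99.6 and 99.6. MYB47 (AT1G18710) lay under 1 peak in each SWN-GFP list, at chromosome 1, 6450216 to 6453214 and 6450312 to 6453260. The double mutant had 2 peaks there in each list, and 2630 and 2676 bp were covered in SWN-GFP against 2341 and 2346 bp. MYB119 (AT5G58850), a regulator of the female gametophyte, gave a fold of 3.67 in SWN-GFP replicate 1 and 11.3 in replicate 2. In replicate 2 the peak was 4136 bp long, its summit lay 577 bp outside the span and it also overlapped CYP86A1, so this high value is not a value of MYB119 alone.

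The flavonol activators were covered less in the double mutant, while an anthocyanin activator had peaks there only. MYB11, MYB12 and MYB111 are close relatives that switch on the flavonol branch of phenylpropanoid metabolism, and all 3 were covered less in both double mutant libraries. MYB11 (AT3G62610) was covered over 1953 and 1796 bp of its 1956 bp span in SWN-GFP and over 854 and 823 bp in the double mutant, means of 1874.5 ± 111 bp and 838.5 ± 21.9 bp (SD, n = 2 each). The main SWN-GFP peaks spanned chromosome 3, 23154580 to 23156582 and 23155166 to 23156550, and those of the double mutant 23155439 to 23156292 and 23155469 to 23156291. What was no longer covered lay mainly on the low-coordinate side of the gene. The fold at MYB11 was 11.3 and 12.3 in the SWN-GFP lists, at percentiles 97.8 and 98.6, and 4.74 and 4.04 in the double mutant lists, at percentiles 82.0 and 75.7. The peaks also reached the neighbouring gene AT3G62615 in all 4 lists.

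MYB12 (AT2G47460) had 2 peaks in each list. Its covered length was 1117 and 1337 bp in SWN-GFP and 685 and 672 bp in the double mutant. The larger SWN-GFP peak, at chromosome 2, 19478316 to 19479162 and 19478081 to 19479163, had a fold of 4.95 and 4.49, and the peaks within it in the double mutant lists had 2.33 and 2.16. The smaller peak, near the other end of the gene, had 2.66 and 2.93 in SWN-GFP and 3.15 and 3.34 in the double mutant, so the higher of the 2 peaks was a different one in each genotype. MYB111 (AT5G49330), named here after its values were seen, was covered over 554 and 509 bp in SWN-GFP and 278 and 451 bp in the double mutant. Its folds were 4.11 and 3.43 and then 2.23 and 2.11. MYB111 had no double mutant peak left, and so was lost, with a stricter threshold on q or with lists cut to equal length.

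Of the anthocyanin activators, a tandem run of relatives on chromosome 1, MYB113 had no peak in any list, MYB114 (AT1G66380) was gained and MYB90 (AT1G66390) was kept. MYB114 was covered over 678 and 760 bp in the double mutant libraries and had no peak in either SWN-GFP library. Its folds were only 3.01 and 2.92, near the middle of the double mutant lists at percentiles 47.7 and 45.9. MYB90 was covered over 696 and 681 bp in SWN-GFP and 656 and 708 bp in the double mutant, and the genotypes overlapped. PAP1, an anthocyanin activator of the same subgroup listed under its own symbol and thus no member, was gained as well, with 823 and 1520 bp covered.

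**Figure D3:**
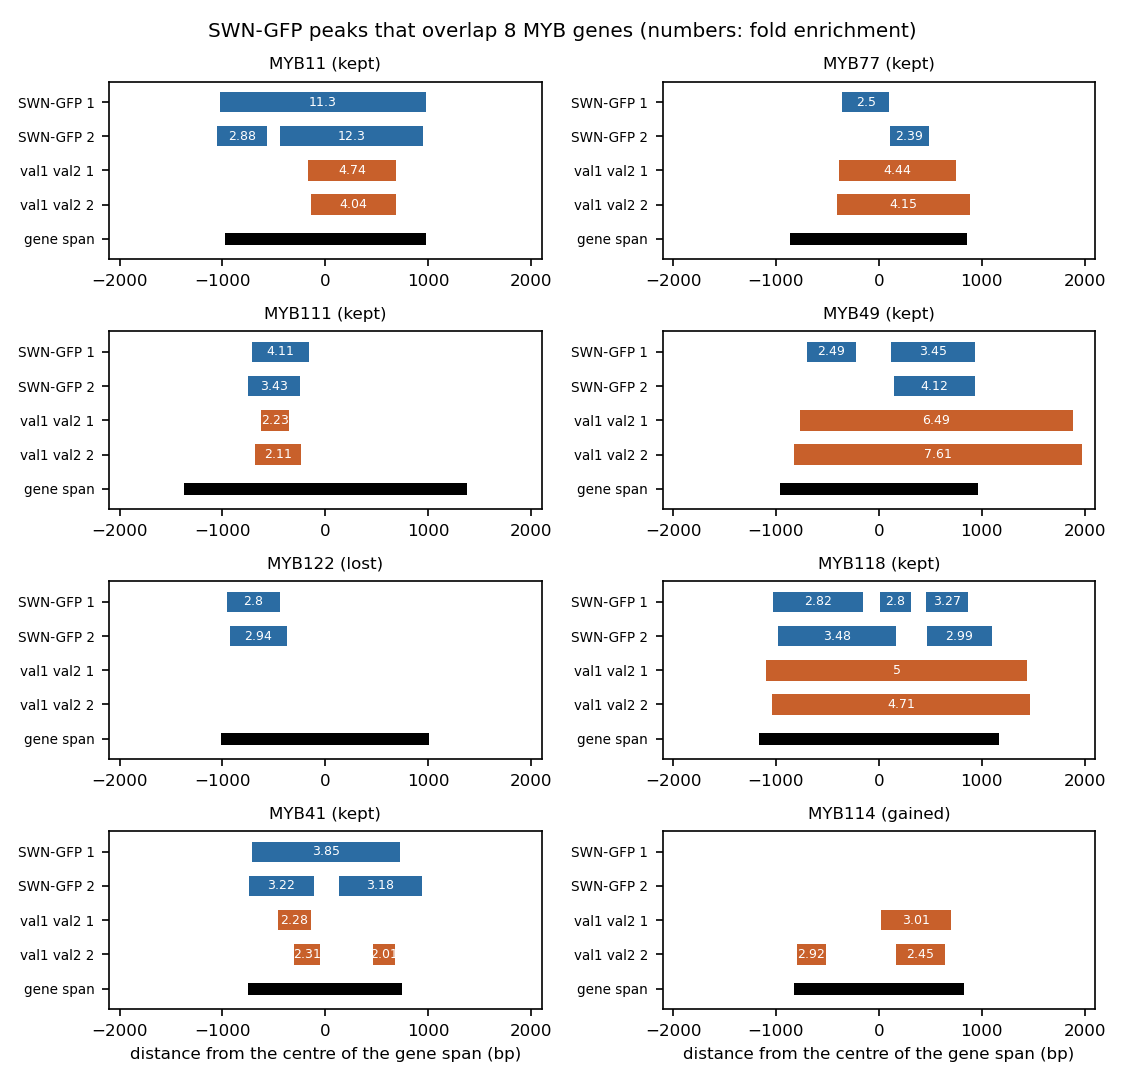
Peaks that overlap 8 MYB genes, drawn as distance from the centre of the gene span (x axis, bp), for SWN-GFP (blue) and SWN-GFP val1 val2 (orange), with the fold enrichment printed in each peak and the gene span in black. At MYB11 and MYB41 the SWN-GFP peaks are the longer ones, at MYB77, MYB49 and MYB118 those of the double mutant, while MYB122 and MYB114 have peaks in one genotype.

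Genes of the flavonoid pathway on which these factors act differed in part. The list held 18 genes of flavonoid synthesis and partners of MYB proteins, of which 8 had no peak in any list. Those with any peak were 5 kept, 3 lost and 2 mixed, and among them 5 were covered less and 1 more. Only the 5 kept and 3 lost genes had a peak in both SWN-GFP lists. Over all genes, 16.0% of those with a peak in both SWN-GFP lists were lost, and 24.9% and 30.1% of those with any peak were covered less and more. The lost genes were CHI (456 and 237 bp in SWN-GFP), F3H (295 and 596 bp) and FLS1 (450 and 432 bp), which encode chalcone isomerase, flavanone 3-hydroxylase and flavonol synthase. F3'H, the flavonoid 3'-hydroxylase gene, was covered over 1200 and 939 bp in SWN-GFP and 503 and 314 bp in the double mutant. The first enzyme gene of the pathway, CHS, was covered with overlap of the genotypes, over 767 and 793 bp and then 703 and 819 bp. The anthocyanin and tannin genes DFR, LDOX and BAN had no peak in any list. Of the bHLH partners of MYB proteins, GL3 was covered over 2349 and 1977 bp and then 1110 and 1116 bp, and TT8 over 826 and 843 bp and then 1320 and 1700 bp, the opposite order.

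Repressors of phenylpropanoid genes made up a list of 4, of which MYB4 and MYB32 were kept, MYB3 was lost and MYB7 was mixed. Of all genes, 12.6% were kept, and 16.0% of those with a peak in both SWN-GFP lists were lost. MYB4 (AT4G38620), which represses the cinnamate 4-hydroxylase gene, was covered over 1307 and 1322 bp in SWN-GFP and 1316 and 1369 bp in the double mutant, and the genotypes overlapped. MYB32 (AT4G34990) was covered over 565 and 813 bp and then 935 and 1008 bp. MYB3 (AT1G22640) had short peaks of 321 and 244 bp in the SWN-GFP lists only, at chromosome 1, 8006864 to 8007184 and 8006910 to 8007153. They were weak, with folds of 2.40 and 2.73 at percentiles 12.8 and 34.9, and with a −log10 q of at least 5 MYB3 was mixed.

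At the regulators of glucosinolates, the sulfur-containing defence compounds of the cabbage family, 4 of 6 genes were occupied in both SWN-GFP lists, against 16.9% of all genes. Of the 5 with any peak, 3 were covered less and none more, against 24.9% and 30.1% of all genes with any peak. Of all genes with a peak in both SWN-GFP lists, 16.0% were lost. MYB122 (AT1G74080), a regulator of the indolic branch, was the lost member, with peaks of 516 and 553 bp at chromosome 1, 27855627 to 27856142 and 27855662 to 27856214. Its folds were 2.80 and 2.94. MYB51 (AT1G18570), also of the indolic branch, was covered over 1735 and 1633 bp in SWN-GFP and 1470 and 1531 bp in the double mutant. The difference in length was small, but its strongest peak ranked at percentiles 86.3 and 82.1 in SWN-GFP and at 61.9 and 1.42 in the double mutant. MYB34 (AT5G60890), the third indolic regulator, was covered over 316 and 330 bp and then 243 and 494 bp, with no separation of the genotypes. Its peak in SWN-GFP val1 val2 replicate 1 overlapped no peak of the other libraries, so the covered bases differed.

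MYB28 (AT5G61420), the main regulator of the aliphatic branch, was covered over 1313 and 1130 bp and then 989 and 1004 bp. Its strongest peak nevertheless ranked higher in the double mutant lists, at percentiles 84.2 and 86.4 against 75.0 and 77.5, and with 1000 bp added on either side of the gene its genotypes overlapped. The other aliphatic regulators, MYB29 and MYB76, are neighbours on chromosome 5, and MYB29 had a peak of 200 bp in SWN-GFP val1 val2 replicate 1 only while MYB76 had none. Of 17 glucosinolate synthesis genes, 9 were kept, none was lost or gained, and 4 were covered less and 5 more of the 11 with any peak. Over all genes, 12.6% were kept, and 24.9% and 30.1% of those with any peak were covered less and more. Lost were 16.0% of all genes with peaks in both SWN-GFP lists, and gained 20.2% of those with peaks in both double mutant lists. The genes for the first step of the indolic branch, CYP79B2 and CYP79B3, were covered over 2158 and 2062 bp and over 2992 and 2992 bp in SWN-GFP, and over 1586 and 1738 bp and over 2919 and 2724 bp in the double mutant. CYP83A1 of the aliphatic branch had 217 bp and no bp in SWN-GFP and 1630 and 1401 bp in the double mutant.

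Of the 14 regulators of secondary walls and lignin, 8 were kept (12.6% of all genes were kept), 2 mixed and 4 without a peak, and none was lost or gained. MYB46 (AT5G12870), a master switch of secondary wall synthesis, was covered over 2368 and 2105 bp in SWN-GFP and 2198 and 2308 bp in the double mutant, while its close relative MYB83 had 135 bp in SWN-GFP val1 val2 replicate 1 only. MYB26 (AT3G13890), which is needed for wall thickening in anthers, was covered over its whole 1890 bp in both SWN-GFP libraries and over 1838 and 1864 bp in the double mutant. Its folds were 10.3 and 10.1 and then 14.5 and 13.7, so that the slightly shorter peaks were the higher ranked, at percentile 99.3 in both double mutant lists against 97.2 in both SWN-GFP lists. With 1000 bp added on either side its genotypes overlapped in length. MYB85 (AT4G22680), a lignin regulator, was covered over 1110 and 870 bp and then 1352 and 1672 bp. MYB54 (AT1G73410), another regulator of wall genes, went the other way with 1210 and 1607 bp and then 958 and 1109 bp, and with 1000 bp added on either side its genotypes overlapped. The lignin activators MYB58 and MYB63 had no peak. Of 19 secondary wall synthesis genes and NAC-domain switches, 5 were kept, PAL1 was lost, FRA8 was gained, 2 were mixed and 10 had no peak, among them the cellulose synthase genes CESA4, CESA7 and CESA8. Of all genes, 12.6% were kept and 29.0% had a peak in any list. Of all genes with a peak in both SWN-GFP lists, 16.0% were lost. Of those with a peak in both double mutant lists, 20.2% were gained.

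The list for cuticle, suberin and the endodermis had 7 kept, 1 gained and 4 mixed genes of 14, where 12.6% of all genes were kept. Gained were 20.2% of all genes with peaks in both double mutant lists. MYB41 (AT4G28110), which can switch on suberin synthesis, was the kept MYB gene with the lowest ratio between genotypes. It was covered over 1444 and 1248 bp of 1497 bp in SWN-GFP and over 327 and 470 bp in the double mutant, means of 1346 ± 139 bp and 398.5 ± 101 bp (SD, n = 2 each) and a ratio of 0.296. Percentiles of its strongest peak were 68.3 and 54.9 and then 2.33 and 3.63. MYB30 (AT3G28910), an activator of very-long-chain fatty acid genes, was covered over 496 and 1398 bp and then 1626 and 1417 bp. The SWN-GFP replicates differed widely, and with a stricter threshold on q or with lists of equal length the genotypes overlapped. MYB94 and MYB96, activators of wax synthesis, and MYB36, which sets up the Casparian strip of the endodermis, were covered over most of their spans in every library. MYB96 (AT5G62470) was covered over 2151, 2151, 2127 and 2151 bp, MYB36 (AT5G57620) over 1770, 1866, 1792 and 1866 bp and MYB94 (AT3G47600) over 1904, 1754, 1691 and 1742 bp in SWN-GFP replicates 1 and 2 and SWN-GFP val1 val2 replicates 1 and 2. With 1000 bp added on either side the genotypes also overlapped at MYB94. MYB107 (AT3G02940), which promotes suberin in the seed coat, was gained, with 825 and 451 bp. In replicate 2 the summit of its peak lay 1282 bp outside the gene. The call ended with 1000 bp added on either side, where MYB107 was kept, and with a −log10 q of at least 5 or with the summit required inside the span, where it was mixed.

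Among stamen, tapetum and gametophyte regulators 5 of 9 were kept, against 12.6% of all genes, and 1 was gained. Gained were 20.2% of all genes with peaks in both double mutant lists. MYB21 and MYB24, relatives that act in stamens under jasmonate, were both occupied in all 4 lists, and their peaks ranked higher in the double mutant. MYB24 (AT5G40350) was covered over 1721 and 1338 bp and then 2290 and 2154 bp, without overlap, and its peak ranked at percentiles 84.6 and 88.3 and then 95.2 and 95.5. MYB21 (AT3G27810) was covered over 2587 and 2306 bp and then 2586 and 2939 bp, so its libraries overlapped, and its percentiles were 88.9 and 92.2 and then 97.0 and 96.4. Their relative MYB57 (AT3G01530) showed the opposite order, with 624 and 921 bp and then 312 and 386 bp, and folds of 2.98 and 3.42 and then 2.34 and 1.98. MYB108 (AT3G06490), which acts with MYB24 in stamens and in responses to wounding, was covered over 1025 and 1462 bp and then 1832 and 1719 bp. MYB80 (AT5G56110), a regulator of the tapetum, was gained, with peaks of 634 and 610 bp at chromosome 5, 22719944 to 22720577 and 22720013 to 22720622. Its folds of 3.40 and 3.76 ranked at percentiles 61.1 and 71.1, and the peaks of the 2 libraries lay over the same bases for most of their length.

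The GAMYB-like genes, relatives of the gibberellin-regulated MYB of cereal aleurone, had a peak in any list at 2 of 7, a share close to the 29.0% of all genes. MYB101 (AT2G32460), which acts in pollen tubes, was the kept one, with 1038 and 938 bp in SWN-GFP and 1397 and 1698 bp in the double mutant. MYB81 had 235 bp in SWN-GFP val1 val2 replicate 1 only, and its neighbour MYB104 had none.

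Genes for axillary buds, boundaries and leaves had 6 of 8 kept, against 12.6% of all genes, 1 gained and 1, MYB17, without a peak. Gained were 20.2% of all genes with peaks in both double mutant lists. MYB37 (AT5G23000), known as RAX1 for its role in axillary meristems, lay whole under a peak in each of the 4 libraries, 1888 bp in all, with percentiles of 91.0 and 88.1 and then 90.2 and 93.2. MYB117 (AT1G26780), the organ boundary gene LOF1, was covered over 1543 and 1711 bp and then 1649 and 1693 bp. MYB84 (AT3G49690), the RAX3 gene, was gained with 854 and 365 bp, but its peaks were weak, with folds of 2.77 and 2.16, and it was mixed with a stricter threshold on q or with lists of equal length. MYB87 (AT4G37780) was covered over 1013 and 1183 bp and then 529 and 558 bp. There the double mutant peaks lay partly outside the span, with summits 171 and 204 bp beyond it, and with 1000 bp added on either side of the gene the genotypes overlapped.

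**Figure D4:**
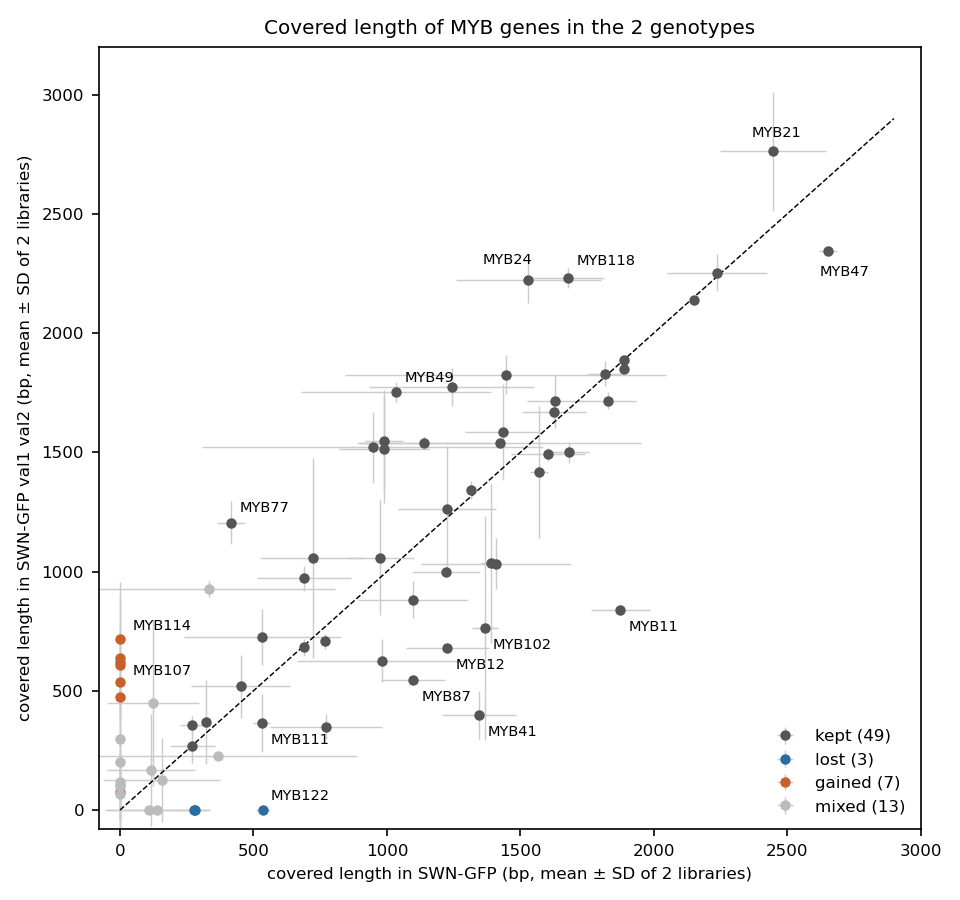
Mean covered length in SWN-GFP (x axis, bp) and in SWN-GFP val1 val2 (y axis, bp) for the 72 MYB genes with a peak in any list, with error bars of 1 SD over 2 libraries and a dashed line of equality. MYB11 and MYB41 lie farthest below the line and MYB77, MYB49 and MYB24 above it among kept genes, while the 3 lost genes lie on the x axis and the 7 gained genes on the y axis.

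The seed list held 3 genes. MYB118 (AT3G27785), which is expressed in the endosperm and can trigger embryonic traits when overproduced, was covered over 1585 and 1774 bp in SWN-GFP in 3 and 2 separate peaks. In the double mutant a single peak in each library covered 2262 and 2202 bp, at chromosome 3, 10288673 to 10291210 and 10288733 to 10291235, and percentiles were 54.9 and 62.0 and then 84.2 and 82.3. Its close relative MYB115 had no peak in any list. MYB56 (AT5G17800), a regulator of seed size, was covered over 1051 and 1797 bp and then 1533 and 1547 bp, with overlap.

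Genes of abscisic acid, stress and light responses differed in both directions, with 6 of 18 kept (12.6% of all genes were kept), 1 lost, 1 gained and 10 without a peak. Of all genes with a peak in both SWN-GFP lists, 16.0% were lost. Of those with a peak in both double mutant lists, 20.2% were gained. MYB77 (AT3G50060), which modulates auxin responses in lateral roots, was the kept gene with the highest ratio of covered length between genotypes. It was covered over 453 and 380 bp in SWN-GFP and 1141 and 1268 bp in the double mutant, means of 416.5 ± 51.6 bp and 1204.5 ± 89.8 bp (SD, n = 2 each), and its percentiles were 18.1 and 12.2 and then 79.2 and 77.1. The SWN-GFP peaks of MYB77 did not overlap each other, at chromosome 3, 18558112 to 18558564 and 18558570 to 18558949, and both lay within the area of the double mutant peaks. Its relatives MYB70 and MYB73 had no peak. MYB49 (AT5G54230) was covered over 1288 and 784 bp and then 1723 and 1782 bp, under peaks of 2645 and 2794 bp in the double mutant that ran beyond the gene. MYB102 (AT4G21440), a gene induced by wounding and osmotic stress, was covered over 1332 and 1401 bp and then 1095 and 431 bp. The double mutant replicates differed widely there. MYB15 (AT3G23250), a regulator of cold and defence responses, was covered over 1507 and 1702 bp and then 1512 and 1473 bp, and MYB78 (AT5G49620) over 1335 and 1533 bp and then 1727 and 1441 bp, both with overlap.

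MYB112 (AT1G48000), which promotes anthocyanin under salt and high light, was counted as lost, with 283 and 274 bp. Its SWN-GFP peaks lay in different places, in replicate 1 at chromosome 1, 17705007 to 17705289, and in replicate 2 at 17704295 to 17704568, so no base was covered in both libraries. Such separate peaks were the exception: the peaks of the SWN-GFP replicates overlapped each other at 49 of the 52 MYB genes occupied in both, and those of the double mutant at 57 of 59. MYB116 (AT1G25340) was gained, with 426 and 518 bp and folds of 2.81 and 3.21, and it was mixed with 1000 bp added on either side.

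Of the genes in no role list, MYB59 and MYB121 were gained and 14 of 23 had no peak, where 29.0% of all genes had a peak in any list. Peaks in both double mutant lists were found at 7 of the 23, and 20.2% of all such genes were gained. MYB59 (AT5G59780), which acts in root growth and nutrient transport, was covered over 620 and 453 bp in the double mutant libraries, with folds of 2.89 and 2.70. MYB121 (AT3G30210) was touched by only 89 and 63 bp of stronger peaks, of percentiles 81.1 and 92.6, whose summits lay 631 and 664 bp outside the gene. It had no peak when 100 bp of overlap were required and was kept with 1000 bp added on either side. MYB40 (AT5G14340) was covered over 757 and 1206 bp in SWN-GFP and 562 and 689 bp in the double mutant, and its genotypes overlapped with a −log10 q of at least 5.

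In lists of equal length, 46 MYB genes had a peak in all 4. Both double mutant percentiles of the strongest peak lay above both SWN-GFP percentiles at 21 of them (45.7%, against 34.7% of all genes with a peak in all 4), and below at 9 (19.6%, against 33.7%). Of the 17 kept genes covered less, the rank was lower at 7, which include MYB11, MYB12, MYB41, MYB51 and MYB102, and overlapped at 3. MYB57 and MYB111 had no double mutant peak in the lists of equal length. The rank was higher at MYB26, MYB94, MYB28, MYB9 and MYB92, of which the last pair was named after the values were seen. The differences at that pair were small, and the folds themselves overlapped, at MYB9 with 4.30 and 4.01 and then 4.19 and 4.22. The 11 kept genes covered more had a higher rank at 8 and an overlapping one at 3.

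**Figure D5:**
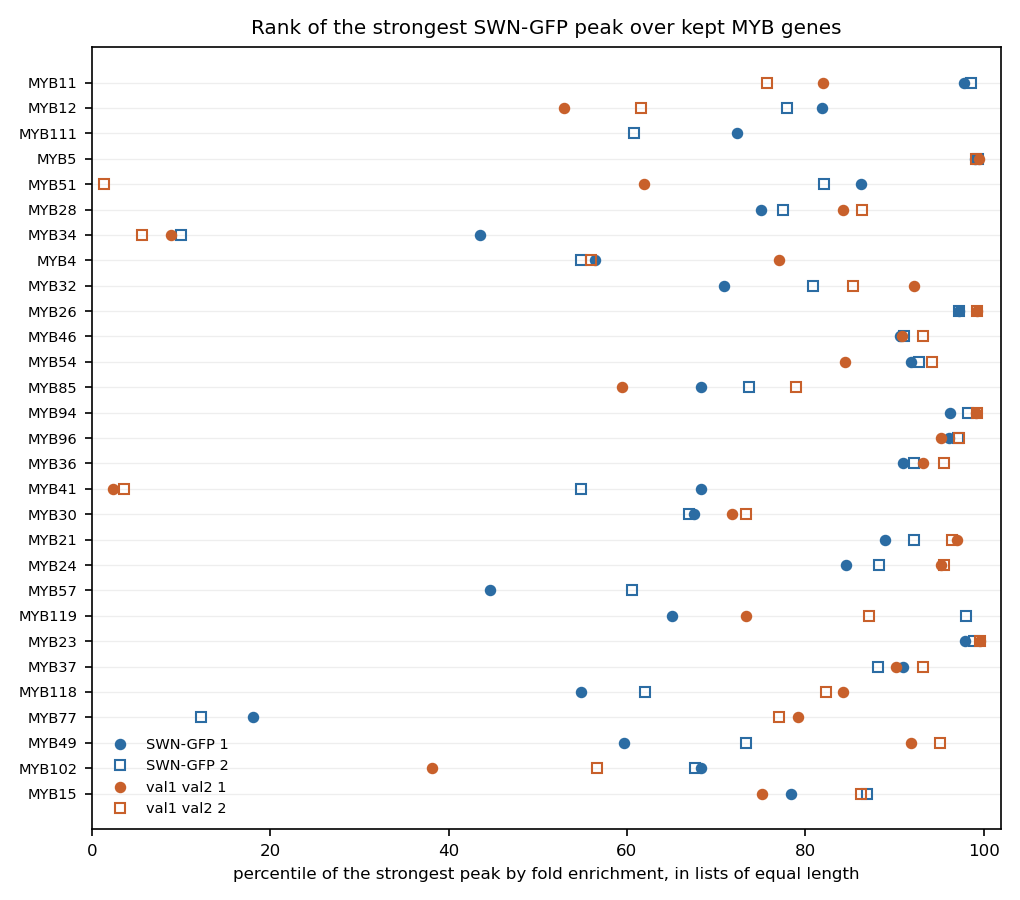
Percentile by fold enrichment of the strongest peak over 29 kept MYB genes (x axis, rank in lists cut to equal length) in SWN-GFP (blue) and SWN-GFP val1 val2 (orange), with filled circles for replicate 1 and open squares for replicate 2. MYB41 and MYB51 stand lower in both double mutant lists and MYB77 and MYB118 higher. MYB5, MYB23, MYB26, MYB94 and MYB96 stand above percentile 95 in all 4, and MYB57 and MYB111 have no double mutant point.

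Some MYB genes shared their peaks with other protein-coding genes. Peaks reached a second gene at MYB5, MYB11, MYB21, MYB95 and MYB119, and no peak covered 2 MYB genes. Neighbouring MYB genes could differ: MYB118 and MYB21 next to each other were both kept, MYB24 was kept beside MYB115 without a peak, and MYB113, MYB114 and MYB90 in a row were empty, gained and kept. Of 7 further R2R3-MYB genes listed under another symbol, RAX2 was kept, PAP1 was gained, and AS1, TT2, FLP, DUO1 and TDF1 had no peak in any list. Of all genes, 12.6% were kept and 29.0% had a peak in any list. Gained were 20.2% of all genes with peaks in both double mutant lists. RAX2 was covered over 559 and 668 bp in SWN-GFP and 669 and 921 bp in the double mutant.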

How the data were processed

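Each of the 4 immunoprecipitated libraries had a deposited peak list without header, read in the order of a MACS2 table. Per the submitters' processing notes, Bowtie2, SAMtools, Picard and MACS2 were used with TAIR10, and no source here gives their versions, settings or controls. The deposited pileup is a signal, the fragments over a summit, given in whole numbers. The deposited −log10 p and −log10 q and the fold enrichment, a ratio, are the peak caller's own per peak, and the lowest −log10 q was 1.31 to 1.33. They were used only to rank or filter peaks within a list, and percentiles are ranks by fold, taken for named genes in lists cut to equal length.

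A RefSeq table of TAIR10.1, without strand, exons or sequence, supplied symbols and spans; its coordinates are not printed, and the planned promoter motifs were not analysed here. Coordinates are 1-based, from the lists. Overlaps were computed in Python 3.11.15 with pandas 2.3.3 and numpy 2.4.6, tested on simulated peaks. The members, 10 role lists and 4 pathway lists were chosen with earlier results of these data known. The pathway lists had 71 entries, of which 9 were members and 1 was not a protein-coding gene in the table, which left 61. Shares over all 27444 nuclear protein-coding genes stand beside the counts as background, with no test of a list. Named were all lost and gained genes, the 8 kept genes with the largest difference in each direction without overlap, the 8 highest mean folds and up to 3 genes per role list by mean covered length; others are named within counts or neighbour groups, or as said in the text. Whether the replicates were grown separately is not stated, and their spread may be a technical one. Alternatives were stricter peaks, equal list lengths, wider genes, longer overlaps, summits and left-out libraries.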

Additional observations from a re-analysis of the deposited data

How the results depend on the processing

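The counts of MYB genes occupied in both SWN-GFP lists (52), kept (49), lost (3), gained (7), covered less (20) and covered more (19), were recomputed with each alternative. Only peaks with a fold of at least 4 left 23 occupied, 20 kept, 3 lost, 4 gained, 10 covered less and 9 covered more. Over all nuclear protein-coding genes that setting left 1838 occupied, 1129 kept, 533 lost, 331 gained, 850 covered less and 745 covered more. As reported, these counts over all genes were 4639, 3468, 740, 992, 1979 and 2392. None of the 3 MYB genes lost with that setting (MYB12, MYB51 and MYB74) was lost before, and 1 of the 4 gained was gained before. With −log10 q of at least 5, 5 genes were lost (MYB111, MYB41 and MYB57 besides MYB122 and MYB112), and 5 with lists of equal length (MYB111 and MYB57 besides the first 3). With 1000 bp on either side 6 were lost, and MYB9 turned from covered less to covered more. With the summit inside the span, an alternative chosen after seeing the data, 5 were lost, and MYB20 turned from covered more to lost. The mean covered length of MYB28, lower in the double mutant as reported, was higher by 61 bp with either stricter threshold. It was higher by 88 bp with 1000 bp on either side, which also turned MYB26 (higher by 1 bp) and MYB94 (higher by 141 bp). With the summit inside the span, MYB94 was higher by 871 bp. That value rests on SWN-GFP val1 val2 replicate 2 alone, and MYB94 was mixed with that setting. MYB101, higher in the double mutant as reported, turned the other way, by -271 bp, with a fold of at least 4. Overlaps of at least 100 bp removed MYB121 only. Leaving out 1 library gave 52 to 56 occupied, 49 to 51 kept, 3 to 5 lost, 8 to 11 gained, 22 to 25 covered less and 25 to 31 covered more. Without SWN-GFP replicate 2, 5 were lost and 29 covered more; without SWN-GFP val1 val2 replicate 2, 11 were gained and 31 covered more, since fewer lists must then hold or lack a peak. The differences between replicates correlated at 0.00242 between genotypes over 7958 genes, and the replicate block gave 20 covered less and 23 covered more. That correlation cannot tell whether libraries of the same replicate number were prepared together. Beyond what the settings change by construction, the cause of these differences was not tested. Of the alternatives, only a fold of at least 4 has counts over all genes beside it. The counts with the other alternatives are therefore not a contrast with other genes. Depth limits all calls of absence, since read totals are unknown.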
